A study of Homo sapiens with 32 samples.

Results

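The genes described here were 49 genes of the lysosome, of the proton pump that acidifies it (the V-ATPase) and of autophagy. They were taken by name from a list and found by their Ensembl identifiers among the 48804 genes of the count table. This list and the further gene lists below were chosen with earlier results of these data known. Their shares of called genes beside those of all genes are therefore descriptive only. They comprised 6 lysosomal membrane proteins, 7 lysosomal proteases, 10 genes for the breakdown of glycans and lipids, 14 V-ATPase genes (5 of the V0 sector, 8 of the V1 sector and 1 accessory subunit), 3 transcription factors of the MiT/TFE family and 9 autophagy genes. The cells were MDA-MB-468, an established triple-negative breast cancer line. They were given PBS as the control, salinomycin at 0.5 μM (Sal, a polyether antibiotic that carries ions across membranes), dasatinib at 15 μM (Das, an inhibitor of Src kinases) or the 2 drugs at these doses together (S + D), for 24 or 72 h. Total RNA was sequenced in 8 conditions with 4 biological replicates each, and of the 4 libraries of a condition 3 carried a replicate number in their label and 1 carried none. All cells were of this 1 line, each treatment had 1 dose, and each treatment was compared with the PBS control of the same time point. Reads per gene were converted to CPM, counts scaled to a common total of gene reads per library, and values of a condition are given below in the order unnumbered library, replicate 1, replicate 2, replicate 3. A gene was called higher or lower when its adjusted p was under 0.01 (edgeR's quasi-likelihood test, Benjamini-Hochberg adjustment over all genes tested), and fold changes are log2 values with their standard error (±). Since CPM are shares of a library, fewer cells and less RNA per cell cannot be told apart from them.

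Lysosomes are acidic compartments in which hydrolases degrade material delivered by endocytosis and by autophagy, the pathway that encloses cytoplasm in a double membrane and fuses with the lysosome. The V-ATPase pumps protons into the lysosome, its V1 sector hydrolysing ATP in the cytosol and its V0 sector forming the path through the membrane. TFEB, TFE3 and MITF are transcription factors that bind a short palindrome, TCACGTGA, in front of many lysosomal and autophagy genes, and their activity is set largely by phosphorylation at the lysosome and by transport into the nucleus, neither of which is read by RNA levels.

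Promoter sequences were looked up for the members because of this element. RefSeq (build GRCh38.p14) gave a window of 300 bases, 250 before and 50 after the start of the gene, for 37 of the 49. The core CACGTG, searched once since a palindrome reads the same on both strands and contained in every TCACGTGA, was present in 11 of these 37 windows (29.7%) and in 7.43% of the 27305 windows of all genes (8.88% of the 15842 of protein-coding genes). The full TCACGTGA was present in 6 of 37 (16.2%) and in 1.04% of all windows (1.43% of protein-coding ones). By role, the full element was found in 4 of 16 windows of lysosomal genes (LAMP1, MCOLN1, CTSA and GAA), in 2 of 9 of V-ATPase genes (ATP6V1G1 and ATP6V0D1), in 0 of 9 of autophagy genes and in 0 of 3 of the MiT/TFE factors. Of these 6, the 4 with the largest absolute fold change with S + D at 72 h are printed from 200 bases before to 10 after the start, 5′ to 3′ on the strand of the gene, with TCACGTGA in capitals and, in lower case, further CACGTG cores in those of CTSA and LAMP1. They lie at chr9:114587569-114587778 (plus strand), chr20:45891135-45891344 (plus strand), chr16:67481148-67481357 (minus strand) and chr13:113297039-113297248 (plus strand), in the same order.
ATP6V1G1: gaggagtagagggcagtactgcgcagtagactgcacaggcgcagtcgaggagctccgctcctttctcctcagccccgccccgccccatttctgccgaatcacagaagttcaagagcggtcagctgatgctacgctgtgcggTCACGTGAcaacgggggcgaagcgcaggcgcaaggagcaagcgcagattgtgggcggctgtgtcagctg
CTSA: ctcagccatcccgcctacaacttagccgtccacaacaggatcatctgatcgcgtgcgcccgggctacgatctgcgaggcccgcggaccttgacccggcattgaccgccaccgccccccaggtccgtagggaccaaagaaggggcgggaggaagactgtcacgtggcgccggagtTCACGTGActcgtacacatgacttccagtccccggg
ATP6V0D1: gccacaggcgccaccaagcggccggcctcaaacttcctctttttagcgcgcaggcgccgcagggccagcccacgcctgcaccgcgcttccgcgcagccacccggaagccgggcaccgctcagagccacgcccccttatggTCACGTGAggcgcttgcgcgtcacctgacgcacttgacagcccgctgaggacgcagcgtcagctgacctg
LAMP1: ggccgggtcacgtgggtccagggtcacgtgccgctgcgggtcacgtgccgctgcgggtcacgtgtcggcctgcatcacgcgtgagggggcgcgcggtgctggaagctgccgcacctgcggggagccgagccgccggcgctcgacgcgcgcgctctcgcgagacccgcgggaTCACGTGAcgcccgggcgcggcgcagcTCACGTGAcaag
LAMP1 held 2 copies of the full element and the other promoters printed held 1 each. With S + D at 72 h, the median fold change was 0.62 over the 6 members with TCACGTGA and 0.61 over the 30 tested members whose window lacked it, and 3 of 6 against 21 of 30 were called higher. With Sal at 72 h, the medians were 0.41 and 0.63, and 2 of 6 against 17 of 30 were called higher. For the core CACGTG, the medians over 11 members with it and 25 without were 0.65 and 0.60 with S + D, and 0.62 and 0.43 with Sal. Called higher were 6 of 11 against 18 of 25 with S + D and 5 of 11 against 14 of 25 with Sal. A match describes these letters only, and binding was not measured.

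The 32 libraries held between 25692561 and 42769687 counts on genes. EPCAM, KRT8, KRT18, KRT19, EGFR and CDH1, markers of an epithelial breast line, had at least 5789 counts in each library. PTPRC and CD3E, which mark leukocytes, had at most 5. Of the fibroblast markers, COL3A1 had at most 2 counts in each library, whereas COL1A1 had from 602 to 4275. The epithelial markers moved with treatment: their summed level ran from 10578 to 11578 CPM in the controls at 72 h, from 6734 to 7215 with Sal, from 7249 to 9617 with Das alone and from 4665 to 6307 with S + D, 4 of the 6 fell with S + D, and KRT19 fell by 2.30 (adjusted p = 8.69e-08). COL1A1, a collagen, rose by 1.62 ± 0.21 (adjusted p = 4.37e-06) with S + D at 72 h. The part of these changes in the results below was not tested. Libraries without a replicate number deviated from their conditions together, over all genes, with correlations of these deviations from 0.52 to 0.67, so counts of called members are also given for the numbered libraries alone where they differ by more than 1.5 times. Replicate 3 of Das at 72 h lay close to the controls for several members, and values without it are given for the named members with a call against the control with Das at 72 h, and wherever its omission changed a call of a member.

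The clearest change was a rise of autophagy genes and of the sialidase NEU1 and the lipase LIPA, largest at 72 h with Sal and S + D, while the cathepsins CTSB and CTSD fell with each treatment at that time. At 72 h MAP1LC3B stood 5.27-fold higher with Sal and 5.69-fold higher with S + D than in the controls. Of the 49 members, 48 had enough counts for a test. The exception was ATP6V0C, the proton-carrying ring subunit of V0, with 0 to 19 counts per library and 76.3% of its annotated exon bases shared with other genes. At 24 h, 5 members rose and 1 fell with Sal (10.4% and 2.08% of 48), where 4.55% of all genes tested rose and 2.23% fell. With Das, 4 rose and 3 fell (8.33% and 6.25%), close to the 6.99% and 6.88% of all genes. With S + D, 11 rose and 5 fell (22.9% and 10.4%), against 17.1% and 16.5% of all genes. At 72 h, 20 members rose and 6 fell with Sal (41.7% and 12.5%), against 26.3% and 26.8% of all genes. Das gave 8 higher and 2 lower (16.7% and 4.17%, all genes 10.5% and 9.36%). S + D gave 25 higher and 5 lower (52.1% and 10.4%, all genes 27.0% and 27.9%). The median fold change of the 48 was 0.11, 0.05 and 0.12 at 24 h and 0.25, 0.14 and 0.52 at 72 h with Sal, Das and S + D, and that of all genes lay between -0.02 and 0.04 in the same 6 comparisons. All 3 treatments of a time point share its control libraries.

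At 24 h the calls rose, among the members and among all genes, when the numbered libraries were fitted alone or the replicate label was entered as a block. In the numbered libraries alone, 9 members rose and 2 fell with Sal (all genes 12.7% and 10.9%), 12 and 8 with Das (20.6% and 18.7%) and 16 and 11 with S + D (28.7% and 29.4%). With the replicate block, 8 rose and 2 fell with Sal and 10 rose and 5 fell with Das. Without replicate 3 of Das at 72 h, 12 members rose and 2 fell with Das (14.6% and 13.2% of all genes). The 4 added were ATP6V1D, ATP6V1E1, BECN1 (0.36 ± 0.10, adjusted p = 0.00916) and ULK1 (0.74 ± 0.17, adjusted p = 0.00219). Leaving out any 1 of controls 1 and 2 and Das 1 and 2 gave 5 higher, with the share of all genes not given here. A log2 fold change beyond 1.5, the cutoff of the study, was passed at 24 h by WIPI1 alone with each treatment (all genes 0.721% with Sal, 2.49% with Das alone and 6.06% with S + D). At 72 h it was passed by 6 members with Sal (LIPA, MAP1LC3B, NEU1, SQSTM1 and WIPI1 higher, CTSB lower), where 18.7% of all genes passed, by WIPI1 with Das (all genes 5.02%) and by MAP1LC3B, NEU1, SQSTM1 and WIPI1 with S + D (all genes 20.2%).

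**Figure D1:**
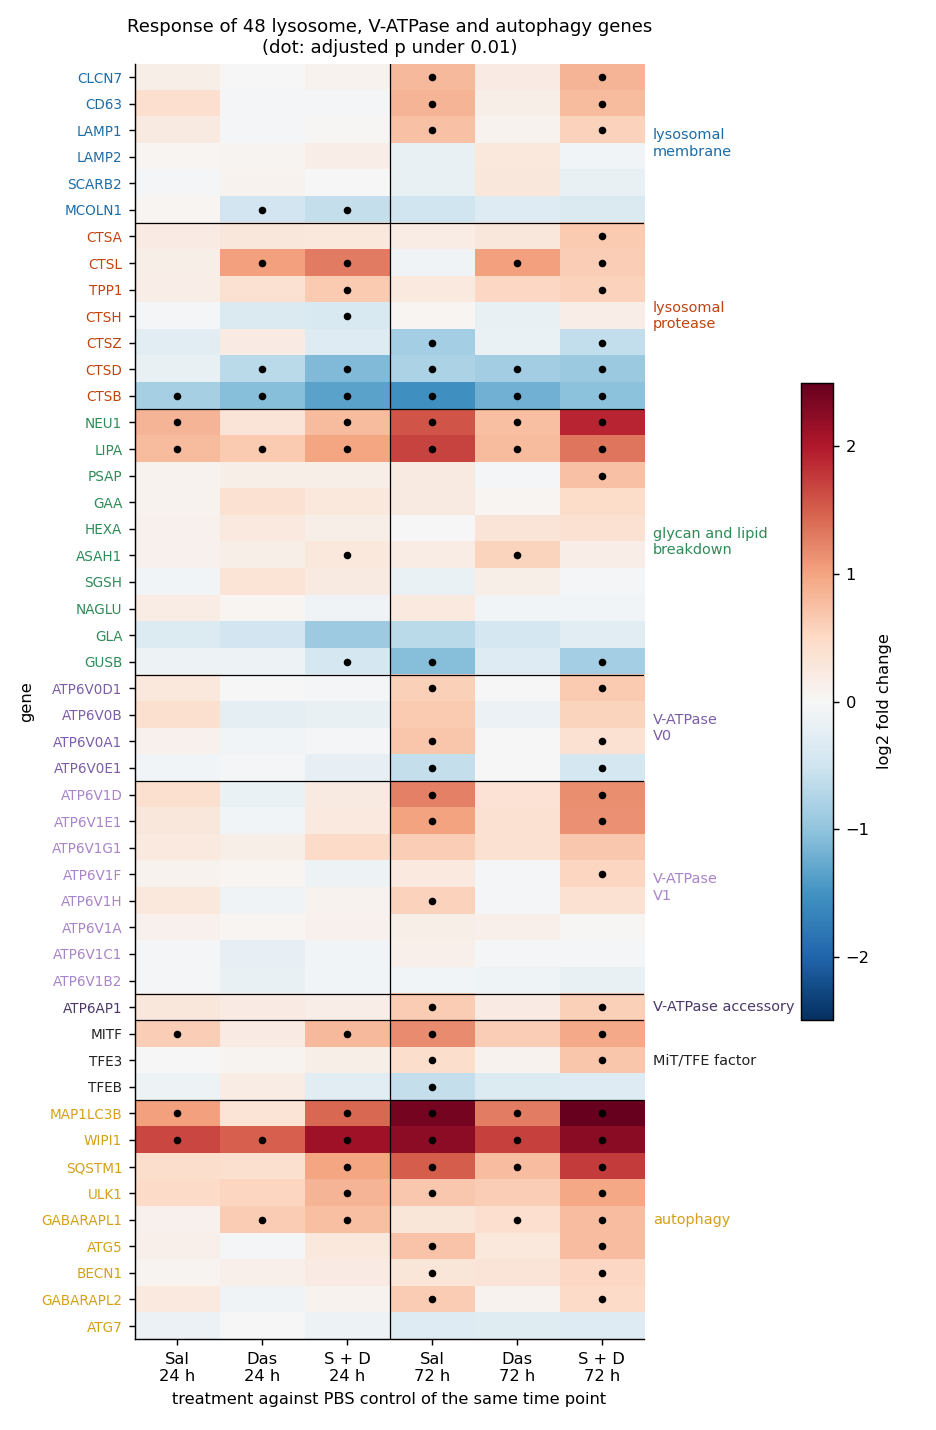
Log2 fold change of the 48 members tested (rows, grouped and coloured by role, ordered within a role by the value with S + D at 72 h) for each treatment against the PBS control of its time point (columns), in colour from blue (lower) to red (higher), with a dot where the adjusted p was under 0.01. At 72 h the columns of Sal and S + D hold 20 and 25 members called higher, among them MAP1LC3B and WIPI1 as the reddest rows, while CTSB is blue and dotted in all 6 columns.

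The 3 MiT/TFE factors differed in level and in response. Per kilobase of annotated exon, TFE3 stood at 13.3 CPM in the 24 h controls, TFEB at 1.66 and MITF at 1.21. MITF (ENSG00000187098, chr3:69788607-70017487, build GRCh37 here and below) is best known as the regulator of melanocytes. At 24 h, MITF had 7.5, 9.8, 9.11 and 9.38 CPM in the controls and 14, 13, 14.1 and 14.3 in Sal. MITF had 8.43, 9.66, 10.4 and 12.3 CPM in Das and 13.5, 16.1, 16.9 and 15.1 in S + D. The Sal and S + D libraries lay above all controls, and the Das libraries overlapped the controls. At 72 h, MITF had 9.05, 10.8, 11.8 and 11.3 CPM in the controls and 18.1, 25, 28.5 and 27.1 in Sal. MITF had 11.8, 21.7, 20 and 12.9 CPM in Das and 15.7, 19.5, 23.5 and 24.3 in S + D. The libraries of all 3 treatments lay above the controls, the unnumbered Das library only just. The fold change of MITF with Sal was 0.62 ± 0.12 (adjusted p = 0.00322) at 24 h and 1.18 ± 0.20 (adjusted p = 7.49e-05) at 72 h, and with S + D 0.82 ± 0.12 (adjusted p = 5.75e-05) and 0.94 ± 0.20 (adjusted p = 0.000629). With Das it was 0.21 ± 0.12 (adjusted p = 0.256) and 0.62 ± 0.20 (adjusted p = 0.0268), neither of them called. At 72 h it passed the threshold without the unnumbered Das library (0.77, adjusted p = 0.00779) and in the numbered libraries alone (0.68, adjusted p = 0.00656), and stood at 0.74 ± 0.21 (adjusted p = 0.0103) without replicate 3 of Das.

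TFE3 (ENSG00000068323, chrX:48886237-48900936) shares targets with TFEB. At 24 h, TFE3 had 54.6, 56.7, 54.6 and 57.5 CPM in the controls and 65.6, 56.8, 50.1 and 55.1 in Sal. TFE3 had 60.5, 56.3, 56.4 and 58.7 CPM in Das and 69.8, 58.4, 54.3 and 57.3 in S + D, and the conditions overlapped. At 72 h, TFE3 had 51.6, 53.1, 54.6 and 59 CPM in the controls and 82.4, 76.7, 70.4 and 68.8 in Sal. TFE3 had 60.8, 58.7, 55.8 and 56.4 CPM in Das and 90.1, 93.8, 87 and 86.2 in S + D. Here the Sal libraries lay above the controls and the S + D libraries above all others. The fold change at 72 h was 0.43 ± 0.09 (adjusted p = 0.000437) with Sal, 0.08 ± 0.09 (adjusted p = 0.531) with Das alone and 0.69 ± 0.09 (adjusted p = 3.6e-06) with S + D, and S + D exceeded Das by 0.61 ± 0.09 (adjusted p = 4.2e-05). TFEB (ENSG00000112561, chr6:41651716-41703997), the factor after which the lysosomal gene network is often named, moved the other way. At 24 h, TFEB had 11.6, 10.7, 11.1 and 11.4 CPM in the controls and 11.3, 10.9, 7.87 and 11 in Sal. TFEB had 13.9, 15.5, 10.6 and 10.1 CPM in Das and 12.7, 7.26, 8.18 and 7.81 in S + D, with overlap between the controls and each treatment. With S + D, 3 libraries lay below every control and the unnumbered one above. TFEB was not called there in the main fit, and the numbered libraries alone gave -0.50 (adjusted p = 0.00619). At 72 h, TFEB had 14.3, 11.8, 13 and 15 CPM in the controls and 11.2, 10.2, 7.9 and 6.66 in Sal. TFEB had 14.7, 10.1, 9.01 and 9.08 CPM in Das and 11.6, 11, 10.6 and 10.3 in S + D. The Sal and S + D libraries lay below the controls while 1 Das library lay among them. TFEB fell with Sal at 72 h by 0.60 ± 0.18 (adjusted p = 0.0074), a call lost in 5 of the 8 fits that left out 1 library (the unnumbered control, controls 2 and 3, Sal 2 and 3), where the adjusted p rose to at most 0.0303. With S + D its fold change was -0.33 ± 0.18 (adjusted p = 0.113).

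Autophagy genes held the largest rises among the members. With S + D, 5 of the 9 rose at 24 h and 8 at 72 h (all genes 17.1% and 27.0%), with Sal 2 and 7 (4.55% and 26.3%) and with Das 2 and 4 (6.99% and 10.5%). None was called lower in these 6 comparisons, where 2.23% to 27.9% of all genes were. The exception with S + D at 72 h was ATG7, the enzyme that activates the ubiquitin-like proteins of autophagy, at -0.33 ± 0.13 (adjusted p = 0.0406). The median of the 9 was 0.75 at 24 h and 0.78 at 72 h with S + D, against medians of all genes of 0.04 and 0.01. Their summed level at 72 h was 801 ± 42.9 CPM (SD, n = 4) in the controls, 2075 ± 271 with Sal, 1322 ± 315 with Das alone and 2331 ± 206 with S + D. SQSTM1, with 314 to 384 CPM in the controls and 836 to 1335 with Sal, was the largest single part of this sum.

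MAP1LC3B (ENSG00000140941, chr16:87417559-87438385) encodes LC3B, which is attached to the membrane of the autophagosome. At 24 h, MAP1LC3B had 78.1, 76.3, 77.2 and 74.7 CPM in the controls and 259, 111, 126 and 131 in Sal. MAP1LC3B had 107, 89.7, 91.7 and 93.9 CPM in Das and 238, 197, 182 and 194 in S + D. The treated libraries lay above the controls with each treatment, and the unnumbered Sal library lay well above the other Sal libraries. The fold change was 1.02 ± 0.19 (adjusted p = 0.00221) with Sal, 0.34 ± 0.19 (adjusted p = 0.225) with Das alone and 1.44 ± 0.19 (adjusted p = 1.86e-05) with S + D, and in the numbered libraries alone that with Das was 0.30 (adjusted p = 0.000234). At 72 h, MAP1LC3B had 72.8, 72.7, 75.1 and 67.4 CPM in the controls and 441, 333, 384 and 379.6 in Sal. MAP1LC3B had 155, 244, 219 and 78.5 CPM in Das and 423, 498, 366 and 369.6 in S + D. Sal and S + D libraries lay far above the controls, and replicate 3 of Das was just above them while the other Das libraries were well separated. Sal gave 2.40 ± 0.24 (adjusted p = 2.72e-07), or 5.27-fold, and S + D 2.51 ± 0.24 (adjusted p = 1.47e-07), or 5.69-fold. Das gave 1.27 ± 0.23 (adjusted p = 0.00061), and 1.53 ± 0.15 without replicate 3. MAP1LC3B2, a near-identical copy, had 0 to 14 counts at 72 h, and reads of the 2 copies could not be reassigned.

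WIPI1 (ENSG00000070540, chr17:66417089-66453654) encodes a protein that binds phosphoinositides where autophagosomes form, and 28.1% of its annotated exon bases are shared with other genes, among them ARSG. At 24 h, WIPI1 had 33.1, 26.9, 27.5 and 27.5 CPM in the controls and 123, 76.7, 81.3 and 88.5 in Sal. WIPI1 had 86.5, 78.6, 79.7 and 76.9 CPM in Das and 125, 125, 118 and 118 in S + D. All treated libraries lay above all controls, and the S + D libraries were highest, with the unnumbered Sal library among them. The fold change was 1.67 ± 0.12 (adjusted p = 2.18e-07) with Sal, 1.5 ± 0.12 (adjusted p = 4.04e-07) with Das alone and 2.11 ± 0.12 (adjusted p = 4e-09) with S + D. At 72 h, WIPI1 had 34.5, 43.5, 40.4 and 38.2 CPM in the controls and 156, 182, 205 and 200.2 in Sal. WIPI1 had 129, 166, 160.4 and 57.8 CPM in Das and 173, 217, 183 and 186 in S + D. Again the groups did not overlap with the controls, and replicate 3 of Das was the closest to them. The fold change was 2.23 ± 0.23 (adjusted p = 3.41e-07) with Sal, 1.71 ± 0.23 (adjusted p = 3.76e-05) with Das (1.97 ± 0.13 without replicate 3) and 2.26 ± 0.23 (adjusted p = 2.48e-07) with S + D.

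SQSTM1 (ENSG00000161011, chr5:179233398-179265078) encodes p62, a receptor that carries ubiquitinated cargo into autophagosomes, and 22.4% of its exon bases are shared with MGAT4B and MRNIP. At 24 h, SQSTM1 had 430.0, 396, 389.6 and 402 CPM in the controls and 755, 509, 418 and 526 in Sal. SQSTM1 had 672, 501, 471 and 468 CPM in Das and 977, 712, 736 and 709.7 in S + D. The Das and S + D libraries lay above all controls, replicate 2 of Sal lay among them, and the unnumbered library was the highest of each condition. S + D gave 0.99 ± 0.16 (adjusted p = 0.000103), while Sal gave 0.44 ± 0.16 (adjusted p = 0.0773) and Das 0.41 ± 0.16 (adjusted p = 0.0746), values that passed the threshold with the replicate block (adjusted p = 0.00146 and 0.00131). At 72 h, SQSTM1 had 384, 314, 315 and 359 CPM in the controls and 1335, 988, 836 and 839 in Sal. SQSTM1 had 715, 658, 623 and 358 CPM in Das and 1222, 1260.2, 1061 and 1123 in S + D. Sal and S + D libraries lay above the controls, and 1 of the 4 Das libraries lay among them. Sal gave 1.52 ± 0.19 (adjusted p = 2.04e-06) and S + D 1.75 ± 0.19 (adjusted p = 4.5e-07). Das gave 0.77 ± 0.18 (adjusted p = 0.0041), which was 0.97 ± 0.14 (adjusted p = 4.39e-05) without replicate 3 and missed the threshold when any of 5 other libraries was left out (the numbered controls, Das 1 and Das 2), with an adjusted p of at most 0.0155.

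Of the other autophagy genes, GABARAPL1, a relative of LC3, was called with Das alone and S + D but not with Sal at 24 h. Its fold change was 0.64 ± 0.08 (adjusted p = 4.22e-05) with Das, 0.10 ± 0.08 (adjusted p = 0.482) with Sal and 0.75 ± 0.08 (adjusted p = 2.79e-06) with S + D. At 72 h it stood at 0.31 ± 0.11 (adjusted p = 0.0202) with Sal, 0.42 ± 0.11 (adjusted p = 0.00841) with Das (0.53 without replicate 3) and 0.78 ± 0.11 (adjusted p = 9.42e-06) with S + D. The difference between the 2 drugs was not tested for this gene. ULK1, the kinase that starts autophagy, rose with S + D at both times (0.84 ± 0.20, adjusted p = 0.00264 and 0.97 ± 0.17, adjusted p = 0.000104) and with Sal at 72 h (0.67 ± 0.17, adjusted p = 0.00258). ATG5, part of the conjugation machinery, GABARAPL2, another LC3 relative, and BECN1, a subunit of the lipid kinase complex that marks the growing membrane, were called at 72 h with Sal and with S + D. Their fold changes with S + D were 0.78, 0.48 and 0.51, and 17.1% of the exon bases of BECN1 are shared with other genes.

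**Figure D2:**
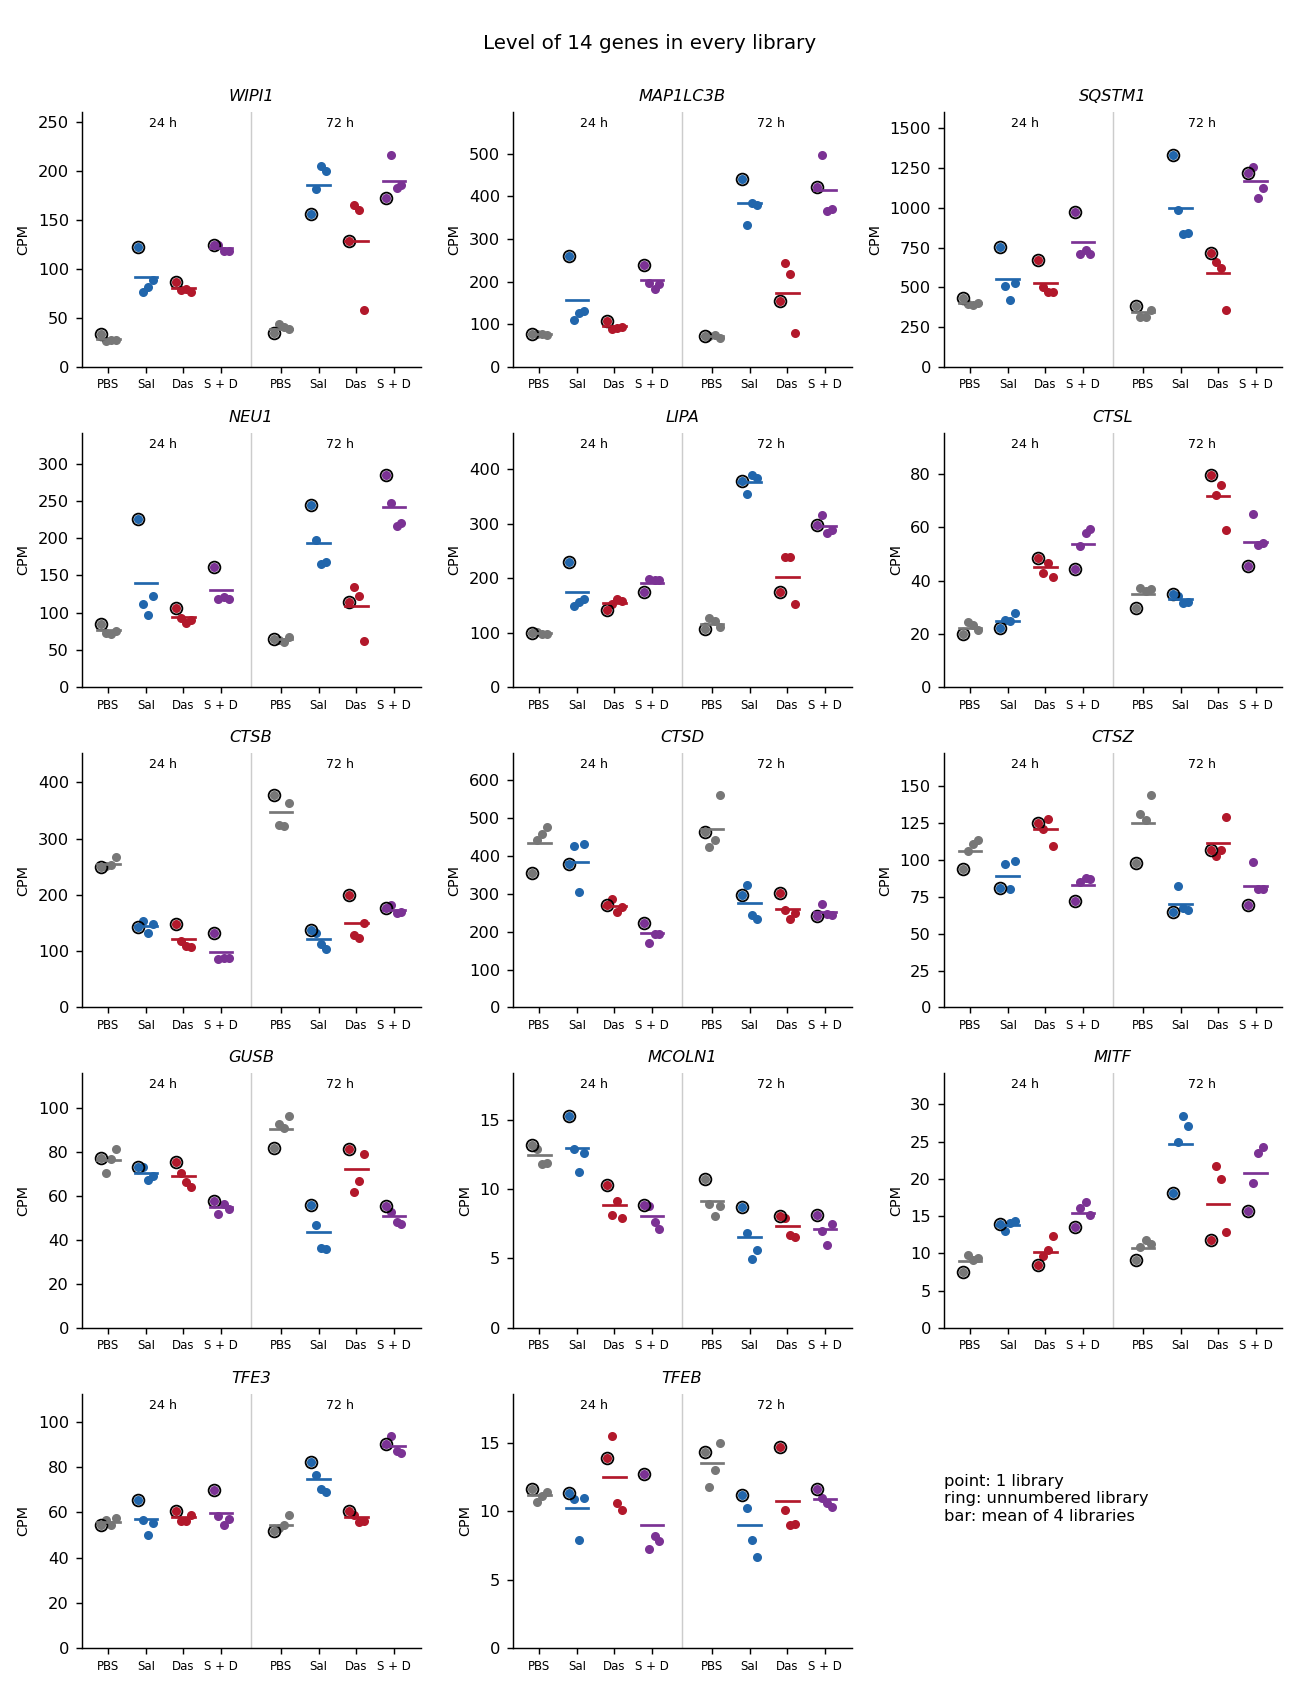
Level in CPM (linear axis from 0) of the 14 genes whose libraries are given one by one, for PBS, Sal, Das and S + D at 24 h (left of each panel) and 72 h (right), with a point for each library, a ring around the unnumbered library and a bar at the mean of 4. MAP1LC3B rises from 67.4 to 75.1 CPM in the 72 h controls to between 333 and 498 with Sal or S + D, CTSB lies below its controls in every treated library, and replicate 3 of Das at 72 h is the lowest Das point of MAP1LC3B, WIPI1, SQSTM1, NEU1, LIPA and CTSL.

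The lysosomal membrane proteins split into a pair of responses. CD63, a tetraspanin, CLCN7, the chloride and proton exchanger of the lysosome, and LAMP1, a main glycoprotein of its membrane, did not pass the threshold at 24 h in any comparison with the control. At 72 h they rose with Sal (0.84, 0.82 and 0.73, adjusted p = 4.41e-05, 0.00828 and 3.28e-06) and with S + D (0.79, 0.84 and 0.58, adjusted p = 7.89e-05, 0.00668 and 3.44e-05). With Das at 72 h their fold changes ran from 0.09 to 0.20 and none was called. LAMP1 stood at 458 ± 11.5 CPM (SD, n = 4) in the controls and at 771 ± 40.9 with Sal, 489.7 ± 46.8 with Das alone and 694 ± 45.6 with S + D. LAMP2, the other main membrane glycoprotein, and SCARB2, the receptor that carries glucocerebrosidase to the lysosome, lay between -0.19 and 0.29 in the 3 comparisons at 72 h. Neither was called in any of the 6 comparisons with a control. The LAMP2 libraries at 72 h still lay below all controls with Sal (270.2 to 301 CPM, controls 314 to 348) and above them with Das (392 to 415). With S + D they overlapped the controls. LAMP2 and SCARB2 were lower with S + D than with Das at 72 h, by 0.34 and 0.48 (adjusted p = 0.00392 and 0.00416). Without replicate 3 of Das, LAMP2 stood at -0.32 ± 0.09 (adjusted p = 0.00926) and SCARB2 at -0.36 ± 0.12 (adjusted p = 0.0279), the latter no longer called.

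MCOLN1 (ENSG00000090674, chr19:7587510-7598895), the calcium channel of the lysosomal membrane, was the membrane gene that fell. At 24 h, MCOLN1 had 13.2, 12.9, 11.8 and 11.9 CPM in the controls and 15.3, 12.9, 11.2 and 12.6 in Sal. MCOLN1 had 10.3, 8.13, 9.12 and 7.92 CPM in Das and 8.82, 8.8, 7.64 and 7.09 in S + D. The Das and S + D libraries lay below all controls, and the Sal libraries overlapped them. At 72 h, MCOLN1 had 10.7, 8.94, 8.04 and 8.79 CPM in the controls and 8.74, 6.86, 4.98 and 5.6 in Sal. MCOLN1 had 8.08, 7.9, 6.68 and 6.56 CPM in Das and 8.11, 6.98, 6 and 7.52 in S + D. In each treatment 1 library, the unnumbered one, lay among the controls and the other 3 lay below them. At 24 h it fell with Das by 0.47 ± 0.12 (adjusted p = 0.00847) and with S + D by 0.59 ± 0.12 (adjusted p = 0.000731). The call with Das was lost in 7 of the 8 fits without 1 library, all but that without the unnumbered Das library, with an adjusted p of at most 0.0319. At 72 h Sal gave -0.49 ± 0.17 (adjusted p = 0.0191), Das -0.33 ± 0.17 (adjusted p = 0.154) and S + D -0.37 ± 0.17 (adjusted p = 0.0698), none of them called. Sal passed the threshold without the unnumbered Sal library (-0.67, adjusted p = 0.00207) and in the numbered libraries alone (-0.58, adjusted p = 0.00434).

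Some proteases rose and others fell. With S + D at 72 h, 3 of the 7 rose (CTSA, CTSL and TPP1) and 3 fell (CTSB, CTSD and CTSZ), beside 27.0% and 27.9% of all genes, and their median was 0.17. The summed level of the 7 was 1253 ± 94.7 CPM (SD, n = 4) in the controls at 72 h, 809 ± 69.6 with Sal, 915 ± 43.8 with Das alone and 952 ± 76.2 with S + D. CTSB and CTSD, the 2 with most reads, were among those that fell. CTSB, on chromosome 8, encodes a cysteine protease. At 24 h, CTSB had 249.6, 251, 253 and 268 CPM in the controls and 143, 153, 133 and 149 in Sal. CTSB had 148, 119, 109 and 108 CPM in Das and 133, 86.3, 88.4 and 88 in S + D. Every treated library lay below every control. At 72 h, CTSB had 377, 325, 323 and 364 CPM in the controls and 137, 132, 112 and 104 in Sal. CTSB had 200.2, 129, 124 and 150.4 CPM in Das and 176, 182, 167 and 169 in S + D. The separation from the controls held here too. With Sal, Das and S + D, CTSB fell by 0.83, 1.06 and 1.33 at 24 h (adjusted p = 0.0006, 3.02e-05 and 9.68e-07) and by 1.53, 1.21 and 1.02 at 72 h (adjusted p = 1.02e-07, 8.51e-06 and 5.3e-06). Without replicate 3 of Das the value with Das at 72 h was -1.19. CTSB, WIPI1 and LIPA were the members called in all 6 comparisons, the latter pair as higher.

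CTSD (ENSG00000117984, chr11:1773982-1785803), the main aspartic protease of the lysosome, shares 48% of its annotated exon bases with other genes. At 24 h, CTSD had 356, 442, 459 and 476 CPM in the controls and 378, 427, 305 and 431 in Sal. CTSD had 270.0, 287, 252 and 264 CPM in Das and 224, 171, 194 and 195 in S + D. Das and S + D lay below all controls, and Sal overlapped them. CTSD fell with Das by 0.67 (adjusted p = 0.000584) and with S + D by 1.11 (adjusted p = 1.91e-06), while Sal gave -0.18 ± 0.12 (adjusted p = 0.352). At 72 h, CTSD had 463, 423, 442 and 560.1 CPM in the controls and 298, 323, 244 and 234 in Sal. CTSD had 303, 256, 234 and 249 CPM in Das and 241, 273, 246 and 245 in S + D. By then the libraries of all 3 treatments lay below the controls. It fell with Sal by 0.80, with Das by 0.87 and with S + D by 0.93 (adjusted p = 3.01e-05, 8.79e-05 and 5.83e-06), and the value with Das was -0.83 without replicate 3.

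CTSZ (ENSG00000101160, chr20:57560741-57583293), a cysteine carboxypeptidase of which 31.7% of the exon bases are shared with NELFCD, fell at 72 h. At 24 h, CTSZ had 94, 106, 111 and 114 CPM in the controls and 81.4, 97.3, 80.2 and 99.3 in Sal. CTSZ had 125, 121, 128 and 109.6 CPM in Das and 72.5, 84.9, 88.1 and 87.3 in S + D, and no comparison was called. The S + D libraries lay below all controls, and the fold change with S + D was -0.32 ± 0.10 (adjusted p = 0.0153). The call with S + D at 24 h was reached with the replicate block (adjusted p = 0.0034) and in the numbered libraries alone (adjusted p = 0.000582), and without the unnumbered control it was -0.39 (adjusted p = 0.00597). At 72 h, CTSZ had 98.3, 131, 127 and 144 CPM in the controls and 64.8, 82.2, 67.2 and 65.9 in Sal. CTSZ had 107, 103, 107 and 129 CPM in Das and 69.3, 98.5, 80.2 and 80.6 in S + D. The Sal libraries lay below the controls, the S + D libraries too except replicate 1, which matched the unnumbered control, and Das overlapped the controls. The fold change was -0.85 ± 0.14 (adjusted p = 3.11e-05) with Sal and -0.62 ± 0.14 (adjusted p = 0.000589) with S + D.

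CTSL (ENSG00000135047, chr9:90338966-90346384), another cysteine protease, rose where CTSB and CTSD fell, with Das alone and with S + D. At 24 h, CTSL had 20.1, 24.6, 23.3 and 21.6 CPM in the controls and 22.1, 25.3, 24.8 and 27.9 in Sal. CTSL had 48.7, 42.9, 46.8 and 41.4 CPM in Das and 44.4, 52.9, 57.8 and 59.4 in S + D. Das and S + D libraries lay above all controls and the Sal libraries overlapped them. Das gave 1.03 ± 0.11 (adjusted p = 7.72e-06), S + D 1.29 ± 0.11 (adjusted p = 2.07e-07) and Sal 0.15 ± 0.11 (adjusted p = 0.414). At 72 h, CTSL had 29.9, 37.2, 36 and 36.9 CPM in the controls and 34.9, 34.2, 31.6 and 31.9 in Sal. CTSL had 79.7, 72.2, 75.9 and 58.9 CPM in Das and 45.6, 65, 53.4 and 54.2 in S + D. The separation of Das and S + D from the controls was kept, and the Sal libraries again overlapped the controls. Das gave 1.03 ± 0.12 (adjusted p = 1.28e-05), or 1.13 without replicate 3, S + D 0.62 ± 0.12 (adjusted p = 0.000238) and Sal -0.09 ± 0.12 (adjusted p = 0.518), and S + D exceeded Sal by 0.72 ± 0.12 (adjusted p = 0.00149). Of the remaining proteases, TPP1, a tripeptidyl peptidase, rose with S + D at 24 h (0.66 ± 0.15, adjusted p = 0.00195) and at 72 h (0.58 ± 0.17, adjusted p = 0.00699). CTSA, which protects NEU1 and the galactosidase in a complex, rose with S + D at 72 h (0.66 ± 0.10, adjusted p = 2.54e-05) and there exceeded both single drugs (by 0.48 over Sal and 0.39 over Das, adjusted p = 0.00878 and 0.00565). The call over Sal was lost in 7 of 8 fits without 1 library (all but that without the unnumbered Sal library), and that over Das in 3 of 8 such fits, among them that without replicate 3 of Das (0.36 ± 0.10, adjusted p = 0.0123). For CTSA, 21.5% of the exon bases are shared. CTSH, an aminopeptidase, fell with S + D at 24 h by 0.39 (adjusted p = 0.00854) and stood at 0.17 at 72 h.

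Among the 10 genes of glycan and lipid breakdown, NEU1 and LIPA had the largest rises and GUSB was the one called lower. NEU1 (ENSG00000204386, chr6:31825436-31830682) is the lysosomal sialidase. At 24 h, NEU1 had 85.4, 72.3, 71.9 and 75.8 CPM in the controls and 226, 112, 96.5 and 123 in Sal. NEU1 had 106, 93.4, 86.5 and 89.9 CPM in Das and 162, 118, 121 and 119 in S + D. The treated libraries lay above the controls, and the unnumbered library was the highest of each condition. Sal gave 0.85 ± 0.20 (adjusted p = 0.00839) and S + D 0.80 ± 0.20 (adjusted p = 0.00327), and Das 0.32 ± 0.19 (adjusted p = 0.269). The call with Sal was lost in 5 of 8 fits without 1 library (each control or Sal 3, adjusted p at most 0.0294) and that with S + D in 4 of 8 (each numbered control or the unnumbered S + D library, at most 0.0149). At 72 h, NEU1 had 65.3, 62.8, 60.6 and 67.8 CPM in the controls and 245, 197, 166 and 168 in Sal. NEU1 had 115, 134, 123 and 61.4 CPM in Das and 285, 248, 216 and 220.2 in S + D. Sal and S + D libraries lay far above the controls, and replicate 3 of Das lay among the controls. Sal gave 1.58 ± 0.19 (adjusted p = 1.79e-06) and S + D 1.90 ± 0.19 (adjusted p = 2.46e-07), or 3.74-fold. Das gave 0.75 ± 0.19 (adjusted p = 0.00582), which was 0.96 ± 0.13 (adjusted p = 2.73e-05) without replicate 3 and was not called without any 1 control library, Das 1 or Das 2 (adjusted p at most 0.0221).

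LIPA (ENSG00000107798, chr10:90973326-91174314) is the acid lipase that splits cholesteryl esters and triglycerides. At 24 h, LIPA had 100, 102, 97.3 and 97.1 CPM in the controls and 229.6, 148, 157 and 161 in Sal. LIPA had 142, 153, 162 and 158 CPM in Das and 175, 198, 197 and 196 in S + D. Every treated library lay above the controls, and the unnumbered Sal library was the highest of all. Sal gave 0.80 ± 0.11 (adjusted p = 0.000158), Das 0.66 ± 0.11 (adjusted p = 0.000316) and S + D 0.99 ± 0.11 (adjusted p = 2.36e-06). At 72 h, LIPA had 106, 127, 121 and 110.3 CPM in the controls and 378, 354, 389 and 384 in Sal. LIPA had 175, 239, 238 and 153 CPM in Das and 297, 315, 283 and 289 in S + D. Sal libraries were highest, above all S + D libraries, and Das libraries lay between these and the controls. Sal gave 1.68 ± 0.13 (adjusted p = 2.36e-08), Das 0.79 ± 0.13 (adjusted p = 0.000197) (0.92 ± 0.11 without replicate 3) and S + D 1.33 ± 0.13 (adjusted p = 1.39e-07), and S + D against Sal stood at -0.35 ± 0.13 (adjusted p = 0.104).

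GUSB (ENSG00000169919, chr7:65425671-65447202), the lysosomal β-glucuronidase, has pseudogene copies whose reads could not be reassigned here. At 24 h, GUSB had 77, 70.3, 76.5 and 81.4 CPM in the controls and 72.9, 73.2, 67.1 and 69 in Sal. GUSB had 75.3, 70.3, 66.2 and 63.9 CPM in Das and 57.4, 51.7, 56.4 and 53.9 in S + D. The S + D libraries lay below all others, and Sal and Das overlapped the controls. At 72 h, GUSB had 81.7, 92.8, 90.8 and 96.4 CPM in the controls and 55.9, 46.5, 36.4 and 35.7 in Sal. GUSB had 81.4, 61.9, 66.8 and 78.9 CPM in Das and 55.2, 52.8, 48 and 47.3 in S + D. The libraries of all 3 treatments lay below all controls, the unnumbered Das library by the smallest margin. GUSB fell with S + D by 0.44 at 24 h and 0.85 at 72 h (adjusted p = 0.000165 and 4e-05) and with Sal by 1.07 at 72 h (adjusted p = 3.87e-06), and Das gave -0.33 ± 0.14 (adjusted p = 0.0724). PSAP, the precursor of the saposins that help hydrolases reach their lipids and, per kilobase, the most abundant member in the 24 h controls (181 CPM per kilobase), rose with S + D at 72 h (0.74 ± 0.18, adjusted p = 0.00145) and was at 0.23 ± 0.18 (adjusted p = 0.275) with Sal and -0.02 ± 0.18 (adjusted p = 0.952) with Das. ASAH1, the acid ceramidase, rose with S + D at 24 h (0.27, adjusted p = 0.00323) and with Das at 72 h (0.56, adjusted p = 0.00056, or 0.62 without replicate 3), and at 72 h was lower with S + D than with Das by 0.40 (adjusted p = 0.00442), a value of -0.41 ± 0.11 (adjusted p = 0.00738) without replicate 3 of Das. GAA, GLA, HEXA, NAGLU and SGSH, hydrolases of glycogen, globotriaosylceramide, gangliosides and heparan sulfate (the last 2), were called in none of the 6 comparisons, with values at 72 h from -0.68 (GLA with Sal) to 0.46 (GAA with S + D). GLA with S + D at 24 h stood at -0.90 ± 0.27 (adjusted p = 0.0119).

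No V-ATPase gene was called against the control at 24 h with any treatment, nor with Das at 72 h in the fit of all libraries. Among all genes, 4.55% rose and 2.23% fell under Sal at 24 h, beside 6.99% and 6.88% under Das. S + D gave 17.1% and 16.5% there, and Das 10.5% and 9.36% at 72 h. At the shares of Sal, 0 calls among 13 genes do not set this group apart. Still, all Sal libraries of ATP6V0A1 and ATP6V1A exceeded every 24 h control, and all Das libraries of ATP6V1B2 and ATP6V1C1 lay below. In S + D at 24 h ATP6V1A lay above and ATP6V0E1 below, and the other 24 h sets overlapped. Without replicate 3 of Das, ATP6V1D (0.46 ± 0.13, adjusted p = 0.00893) and ATP6V1E1 (0.56 ± 0.13, adjusted p = 0.00284) were called higher with Das at 72 h. At 72 h, 6 of the 13 tested rose and 1 fell with Sal, and 6 rose and 1 fell with S + D, beside 26.3% and 26.8% of all genes with Sal and 27.0% and 27.9% with S + D. Their median was 0.59 with Sal, 0.00 with Das alone and 0.53 with S + D. Their summed level was 1249.7 ± 82 CPM (SD, n = 4) in the controls, 1747 ± 234 with Sal, 1355 ± 137 with Das alone and 1735 ± 185 with S + D, and the unnumbered Sal library was the highest of its group. The largest rises were those of ATP6V1D and ATP6V1E1, subunits of the central and peripheral stalks of V1: ATP6V1D rose by 1.25 ± 0.13 (adjusted p = 4.25e-07) with Sal and 1.17 ± 0.13 (adjusted p = 7.18e-07) with S + D, and ATP6V1E1 by 1.00 ± 0.17 (adjusted p = 5.64e-05) and 1.15 ± 0.17 (adjusted p = 1.32e-05). In V0, ATP6V0A1, an isoform of the large membrane subunit, and ATP6V0D1 rose with Sal (0.69 and 0.59) and with S + D (0.39 and 0.65), while ATP6V0E1, a small membrane subunit, fell by 0.60 and 0.43 (adjusted p = 0.000228 and 0.00374). The accessory subunit ATP6AP1 rose by 0.63 and 0.60. ATP6V1H, a regulatory subunit of V1, was called with Sal (0.57 ± 0.15, adjusted p = 0.00228) but not with S + D (0.38 ± 0.15, adjusted p = 0.0295), and ATP6V1F, of which 20.6% of the exon bases are shared, with S + D (0.53 ± 0.11, adjusted p = 0.000508) but not with Sal (0.24 ± 0.11, adjusted p = 0.0722). S + D against Sal was called for neither (-0.19 ± 0.14, adjusted p = 0.464 and 0.29 ± 0.11, adjusted p = 0.127).

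The subunits of the catalytic head were not called. ATP6V1A and ATP6V1B2, which together bind and hydrolyse ATP, and ATP6V1C1, which joins V1 to V0, stood between -0.18 and 0.14 in the 3 comparisons at 72 h. None of the 3 was called in the 6 comparisons with a control. ATP6V1G1, of the peripheral stalks, and ATP6V0B, of the ring, missed the threshold with estimates as large as those of called subunits, ATP6V1G1 at 0.62 ± 0.24 (adjusted p = 0.0305) with Sal and 0.67 ± 0.24 (adjusted p = 0.0198) with S + D, and ATP6V0B at 0.65 ± 0.34 (adjusted p = 0.104) and 0.56 ± 0.34 (adjusted p = 0.151). The called ATP6V0D1 stood at 0.65 ± 0.15 (adjusted p = 0.00111) with S + D, with a smaller standard error.

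**Figure D3:**
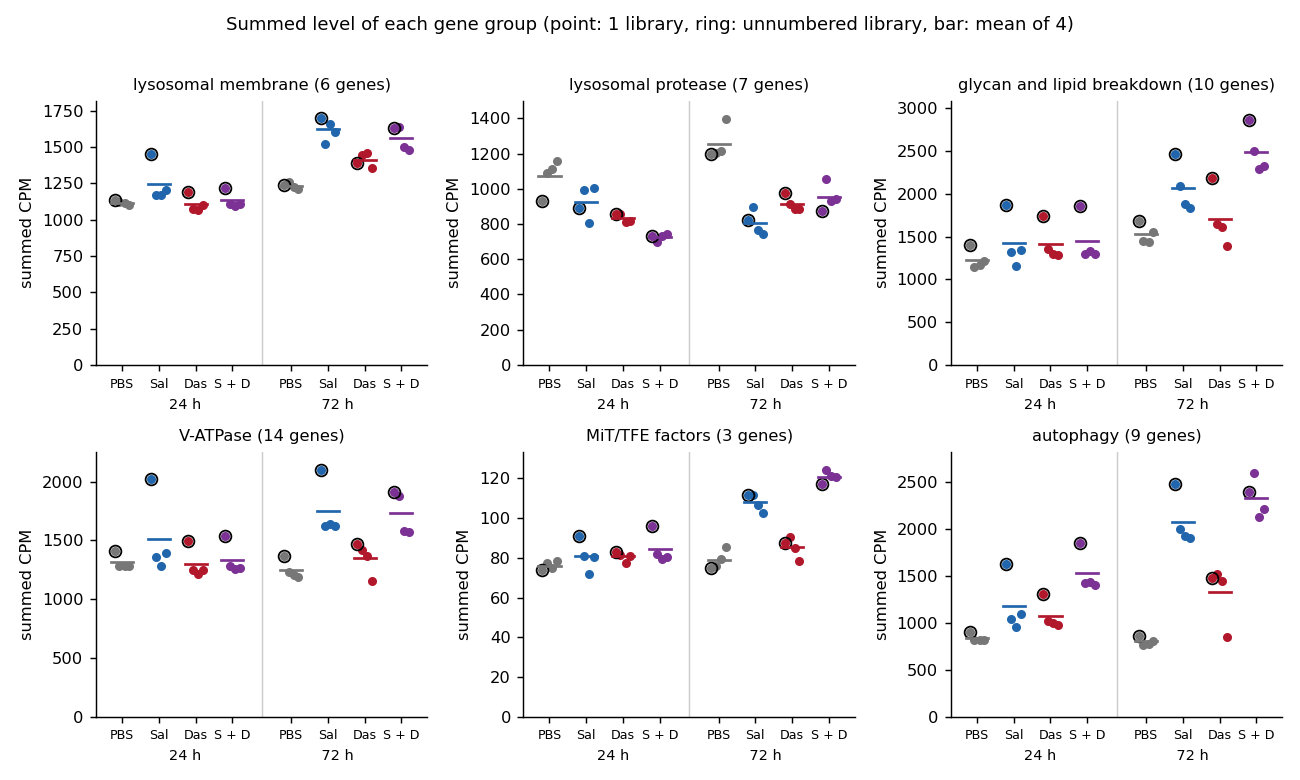
Summed level in CPM (linear axis from 0) of the members of each role in each library at 24 h (left of each panel) and 72 h (right), with a point for each library, a ring around the unnumbered one and a bar at the mean of 4. Autophagy genes sum to between 1903 and 2589 CPM with Sal or S + D at 72 h against 765 to 860.0 in the controls, while the proteases sum to less in every treated library at 72 h than in any control. SQSTM1 is the largest single part of the autophagy sum.

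S + D was compared with each single drug at 72 h. Against Sal, 2 of the 48 members were higher (CTSL and CTSA) and 0 lower, where 1.42% of all genes were higher and 1.59% lower. CTSL alone was called when any 1 of the 8 libraries but the unnumbered Sal library was left out. Higher members came to 4 in the numbered libraries alone (all genes 2.40%) and to 6 with the replicate block (3.56%). Against Das, 15 were higher and 5 lower (all genes 14.3% and 17.7%), with 13 and 3 without replicate 3 of Das (all genes 11.5% and 13.1%) and 13 in all without replicate 3 of S + D. MAP1LC3B was higher with S + D than with Das by 1.24 ± 0.23 (adjusted p = 0.000368), NEU1 by 1.16 ± 0.19 (adjusted p = 0.000113) and SQSTM1 by 0.98 ± 0.18 (adjusted p = 0.000397), whereas against Sal the same genes differed by 0.11 ± 0.23 (adjusted p = 0.829), 0.32 ± 0.19 (adjusted p = 0.324) and 0.22 ± 0.18 (adjusted p = 0.515). For WIPI1 the values were 0.56 ± 0.22 (adjusted p = 0.0474) against Das and 0.03 ± 0.22 (adjusted p = 0.956) against Sal. Without replicate 3 of Das, MAP1LC3B stood at 1.03 ± 0.15 (adjusted p = 6.24e-05) against Das, NEU1 at 0.99 ± 0.14 (adjusted p = 3.14e-05), SQSTM1 at 0.83 ± 0.14 (adjusted p = 0.000263) and WIPI1 at 0.34 ± 0.13 (adjusted p = 0.0532). The members lower with S + D than with Das were ASAH1, ATP6V0E1, GUSB, LAMP2 and SCARB2, by 0.34 to 0.52. Of these, ATP6V0E1 (-0.41), GUSB (-0.45) and SCARB2 (-0.36) were not called without replicate 3 of Das, nor were ATP6V0A1 (0.39) and CTSA (0.36) among those higher, and CTSL then was called lower (-0.46 ± 0.12, adjusted p = 0.00606). A difference that misses the threshold does not show that S + D and Sal act alike.

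Whether the response to S + D equalled the sum of the single responses was read from an interaction term, where 0 stands for the sum on the log2 scale. At 24 h no member was called (0.0306% of all genes were), and 3 of the 48 had an unadjusted p under 0.05. DESeq2 called 1, the replicate block gave 0 positive and 1 negative (all genes 0.0734% and 0.642%), and the smallest adjusted p was that of WIPI1, 0.0121. At 72 h, 2 members had a positive and 2 a negative interaction (all genes 3.43% and 4.09%). WIPI1 stood at -1.68 ± 0.31 (adjusted p = 0.00197) and LIPA at -1.13 ± 0.18 (adjusted p = 0.000635): each rose with both drugs, and rose less with both together than the sum of its single responses. CTSB stood at 1.72 ± 0.19 (adjusted p = 4.58e-05) and CTSD at 0.74 ± 0.18 (adjusted p = 0.00907): each fell with both drugs, and fell less together than the sum. For CTSB, S + D gave -1.02 where Sal alone gave -1.53 and Das alone -1.21. MAP1LC3B had -1.16 ± 0.33 (adjusted p = 0.0198) and ASAH1 -0.58 ± 0.14 (adjusted p = 0.0112), and both were called without replicate 3 of Das (-1.40 ± 0.20, adjusted p = 0.000111 and -0.62 ± 0.15, adjusted p = 0.00614). Without that library WIPI1 stood at -1.92, LIPA at -1.25, CTSB at 1.72 and CTSD at 0.71, all still called. In all, 2 members were then positive and 4 negative (all genes 6.25% and 8.29%). The numbered libraries alone gave 5 and 2 (6.62% and 6.24%) and the replicate block 4 and 5 (7.98% and 8.77%).

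**Figure D4:**
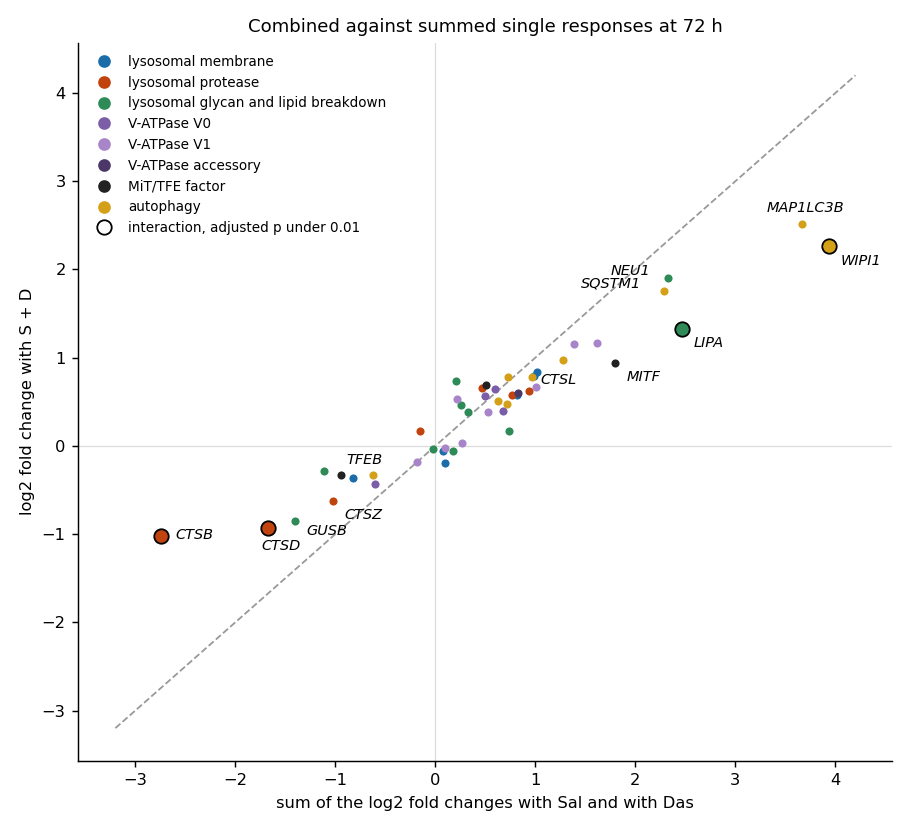
Log2 fold change with S + D at 72 h (y axis) against the sum of the log2 fold changes with Sal and with Das (x axis) for the 48 members, coloured by role, with the dashed line where both are equal and a black ring where the interaction had an adjusted p under 0.01. All 3 fold changes share the control libraries. WIPI1 and LIPA lie below the line at the right, and CTSB and CTSD above it at the left.

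The change of each response from 24 to 72 h was tested in a fit of all 32 libraries. With Sal, the response of 7 members was higher at 72 h and that of 4 lower (all genes 8.21% and 13.7%). The 7 were MAP1LC3B (1.38 ± 0.32, adjusted p = 0.00138), SQSTM1 (1.09 ± 0.26, adjusted p = 0.00146), LIPA (0.89 ± 0.17, adjusted p = 0.000207), ATP6V1D, ATP6V0A1, LAMP1 and TFE3 (0.42 to 0.85), and the 4 were GUSB (-0.94 ± 0.16, adjusted p = 3.96e-05), CTSB, CTSD and CTSZ (-0.69 to -0.59). With S + D, 8 were higher and 1 lower at 72 h (all genes 6.15% and 10.1%), NEU1 (1.15 ± 0.29, adjusted p = 0.00354) and MAP1LC3B (1.12 ± 0.32, adjusted p = 0.00962) with the largest increases and CTSL (-0.62 ± 0.16, adjusted p = 0.00472) the one decrease. With Das no member was called (0.226% of all genes were), 6 had an unadjusted p under 0.05, DESeq2 called 1, and MAP1LC3B was called without replicate 3 of Das (1.20 ± 0.25, adjusted p = 0.00548). In the numbered libraries alone, 15 and 6 members changed with Sal and 20 and 1 with S + D (all genes 16.9% and 22.4%, and 13.7% and 17.9%). With the replicate block, 11 and 6 changed with Sal and 20 and 1 with S + D (all genes 14.2% and 19.5%, and 12.6% and 16.5%). Leaving out 1 library at a time gave 5 to 14 members with Sal and 5 to 11 with S + D. The count with Sal was 5 without Sal 24 h replicate 1 or 3, 6 without control 72 h replicate 3 or Sal 72 h replicate 2, and 7 without control 72 h replicate 1 or 2 or Sal 72 h replicate 3. With S + D it was 5 without control 24 h replicate 3, S + D 24 h replicate 2 or 3, or control 72 h replicate 2 or 3. The controls themselves differed between the times in 2 members, GABARAPL1 (0.41 ± 0.10, adjusted p = 0.00919) and CTSL (0.64 ± 0.11, adjusted p = 0.000723), both higher at 72 h, and 0 were lower (all genes 2.00% and 0.760%). With the block the controls differed in 7 members upwards and 1 downwards (all genes 5.31% and 3.18%). CTSL alone was called when any 1 of the 8 control libraries was left out. The Sal and S + D tests share these controls.

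**Figure D5:**
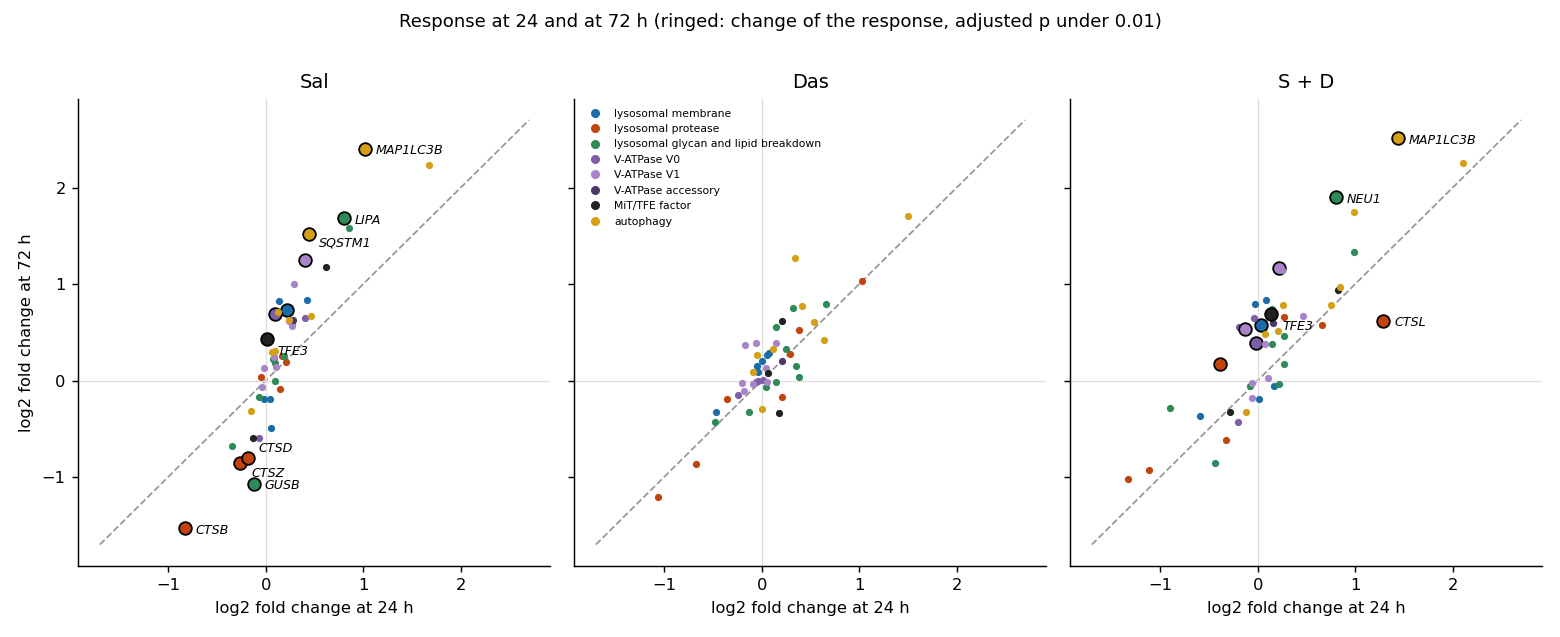
Log2 fold change at 72 h (y axis) against that at 24 h (x axis) for the 48 members with Sal, Das and S + D, coloured by role, with the dashed line of equal response and a black ring where the change between the times had an adjusted p under 0.01. With Sal, MAP1LC3B, SQSTM1 and LIPA lie above the line and CTSB and GUSB below it, and with Das no point is ringed.

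Genes outside the 49 that act in the same compartments were counted for context, in comparisons where, at 72 h, 27.0% of all genes rose and 27.9% fell with S + D, 26.3% and 26.8% with Sal and 10.5% and 9.36% with Das. Of 33 further lysosomal hydrolases and transporters tested, 12 rose and 8 fell with S + D at 72 h, shares of 36.4% and 24.2%, with a median of 0.09. SLC17A5, the sialic acid exporter, rose by 1.84 ± 0.20 (adjusted p = 5.67e-07) and CTSF, a cysteine protease, by 1.75 ± 0.16 (adjusted p = 8.55e-08), while CTSS and CTSC, cysteine proteases best known from immune cells, fell by 2.48 and 1.62 (adjusted p = 6.7e-07 and 7.26e-07). Of 32 further autophagy genes, 17 rose and 2 fell, with a median of 0.48, and with Sal and Das 14 and 4 rose. ATG4A, a protease that processes LC3 relatives, rose by 1.93 ± 0.20 (adjusted p = 2.82e-07). ATG9B had 0 to 3 counts in the 72 h controls, and its mean was at least 352-fold higher with S + D and at least 129-fold higher with Sal than a floor of 3 counts per control library. The Das libraries had from 2 to 45 counts of ATG9B, overlapping the controls. AMBRA1 and ULK2 fell, by 0.55 and 0.48. Of 10 further V-ATPase genes, 4 rose, ATP6AP2 by 0.98 ± 0.14 (adjusted p = 9.91e-06) and ATP6V1G2 by 1.87 ± 0.27 (adjusted p = 1.24e-05) from 0.536 CPM, and 3 fell, among them ATP6V1C2 and ATP6V0A4, isoforms of C and a known from kidney, by 2.00 and 1.48.

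Nutrient sensing at the lysosome, which keeps the MiT/TFE factors in the cytosol when amino acids are plentiful, was read from 18 genes. With S + D at 72 h, 9 rose and 2 fell (50% and 11.1%, all genes 27.0% and 27.9%), with a median of 0.37. RRAGD, a Rag GTPase, rose by 1.42 ± 0.23 (adjusted p = 4.03e-05) with Sal, 1.36 ± 0.23 (adjusted p = 0.000298) with Das alone and 2.10 ± 0.24 (adjusted p = 6.73e-07) with S + D, and LAMTOR3, part of the anchor of the Rag GTPases, by 1.59, 1.04 and 1.49. With Sal 7 and with Das 5 of the 18 rose (all genes 26.3% and 10.5%). FNIP2, a partner of folliculin, and RRAGB, another Rag GTPase, fell with S + D by 0.55 and 0.45 (adjusted p = 0.00155 and 0.00442). Of 6 genes of mannose 6-phosphate sorting, which delivers hydrolases to the lysosome, 1 rose (GNPTG, 0.94 ± 0.14, adjusted p = 1.17e-05) and 2 fell: SORT1, a sorting receptor, by 0.89 and GNPTAB, which encodes the other subunits of the same phosphotransferase as GNPTG, by 0.70 (adjusted p = 2.3e-07 and 0.000177).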

How the data were processed

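RNA of MDA-MB-468 cells was measured in 32 libraries, 4 for each of 8 conditions, and samples were grouped by their labels. The authors built TruSeq libraries, sequenced single-end reads on a HiSeq4000, converted them with bcl2fastq 2.19, aligned them with STAR 2.5.2 to GRCh37 and deposited raw read counts per Ensembl gene, without normalization. Which program counted the reads, on which annotation and with which strand setting is not given in the sources used here. Overlapping genes are therefore named as such from a GENCODE annotation of GRCh37 to which 46537 identifiers matched. Beyond the members marked above, over 10% of annotated exon bases were shared for ATG7 (18.1%), HEXA (16.7%), CLCN7 (15.7%) and NAGLU (12.9%). The FPKM values that the methods describe (Cufflinks 2.1.1) were not used here.

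Counts were analysed with edgeR 4.0.16 (R 4.3.3) using TMM factors, filterByExpr at a minimum count of 10 and the quasi-likelihood test, with p-values adjusted over all genes of a comparison (Benjamini-Hochberg). One fit held the 16 libraries of a time point (16357 genes at 24 h, 16682 at 72 h), and a further fit all 32 libraries (17227 genes) for comparisons between times. CPM come from the latter and are shares of a library, so a rise of abundant genes lowers the others. Standard errors are the absolute log2 fold change divided by the square root of the F statistic. The p-values measure the spread between these libraries, which the methods call biological replicates. The procedure was tested on simulated data with independent libraries. These lacked the joint deviation of the unnumbered libraries, so that test does not bear on pairing.

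The replicate number was checked for pairing through the correlation, over genes, of deviations from the condition means: at 24 h libraries of the same number had 0.13 to 0.32 and the unnumbered ones 0.59 to 0.67, against a median of -0.06 for different labels, so the label pairs the samples at 24 h. Blocked counts stand beside the counts that they moved. Values of single genes come from the fit without a block unless the block is named. At 72 h the pairs of a number ran from -0.03 to 0.25 and those of the unnumbered libraries from 0.52 to 0.61. Alternatives were DESeq2 1.42.0, its size factors, no filter, the replicate block, a term for the unnumbered libraries, the numbered libraries alone, other fits and each library left out in turn.

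All 49 members are named, with every library for TFEB, TFE3, MITF, SQSTM1 and the 3 highest and 3 lowest called members of each treatment. In the other lists, up to 2 called genes that rose most and 2 that fell most with S + D at 72 h are named. The members and lists were chosen with earlier results of these data known. The replicate 3 library of Das at 72 h was singled out after its values were seen. PECAM1, a further marker of other cell types, found no match among the identifiers and is not analysed here, and 1 other marker of that list is not reported here.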

Additional observations from a re-analysis of the deposited data

Results flagged for a closer look

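Among the 112 sets of 4 libraries formed by the 14 genes with single values and the 8 conditions, 14 held a library far from the other 3 by Dixon's test, where chance alone gives about 1 in 20, and in 10 of the 14 it was the unnumbered library. At 24 h the unnumbered S + D library was apart for CTSB (133 CPM, others 86.3 to 88.4), NEU1 (162, others 118 to 121), LIPA (175, others 196 to 198), TFEB (12.7, others 7.26 to 8.18) and SQSTM1 (977, others 709.7 to 736). The unnumbered Sal library at 24 h was apart for LIPA (229.6 CPM, others 148 to 161) and MAP1LC3B (259, others 111 to 131), the unnumbered Das library for SQSTM1 (672, others 468 to 501) and the unnumbered control for WIPI1 (33.1, others 26.9 to 27.5). At 72 h the unnumbered control was apart for CTSL (29.9 CPM, others 36 to 37.2). Of the numbered libraries, replicate 1 of S + D at 72 h was apart for CTSD (273 CPM, others 241 to 246), replicate 1 of Sal at 72 h for CTSZ (82.2, others 64.8 to 67.2), replicate 3 of Das at 72 h for CTSZ (129, others 103 to 107) and replicate 2 of Sal at 24 h for TFEB (7.87, others 10.9 to 11.3). The source of these deviations was not tested.

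The response to a drug differed between 24 and 72 h by the edgeR test of the difference for 11 members with Sal and 9 with S + D. With Sal the difference (72 h minus 24 h, log2) was 1.38 for MAP1LC3B, 1.09 for SQSTM1, 0.89 for LIPA, 0.85 for ATP6V1D, 0.59 for ATP6V0A1, 0.52 for LAMP1 and 0.42 for TFE3. It was -0.94 for GUSB, -0.69 for CTSB, -0.61 for CTSD and -0.59 for CTSZ. With S + D it was 1.15 for NEU1, 1.12 for MAP1LC3B, 1.00 for ATP6V1D, 0.71 for ATP6V1F, 0.62 for CTSH, 0.61 for TFE3, 0.60 for LAMP1, 0.46 for ATP6V0A1 and -0.62 for CTSL. Of these, 5 members were called with both (ATP6V0A1, ATP6V1D, LAMP1, MAP1LC3B and TFE3), and the tests share the control libraries.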

How the results depend on the processing

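Counts of called members moved most with the unnumbered libraries. The shares of all genes called also moved with the replicate block and in the numbered libraries alone. Where no share of all genes stands beside a count in this section, the count is not read as a result about the members. With the replicate block, a term for these libraries and the numbered libraries alone, members higher at 24 h came to 8, 9 and 9 with Sal and 10, 11 and 12 with Das, and members lower to 2, 2 and 2 and to 5, 6 and 8. Members lower with S + D at 24 h came to 11 in the numbered libraries alone (all genes 29.4%). Members higher with Das at 72 h came to 13 with the block (all genes 15.2%) and 14 with the term. In the same 3 settings, S + D against Sal gave 6, 7 and 4 called members, the interaction 1, 1 and 3 at 24 h and 9, 8 and 7 at 72 h, the change over time 17, 17 and 21 with Sal and 21, 21 and 21 with S + D, and the controls over time 8, 8 and 6. The change with Das gave 1 in the numbered libraries alone (all genes 0.816% higher and 2.75% lower). The block changed no other count by more than 1.5 times.

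Without a filter on low counts, S + D against Sal gave 1, the 24 h interaction 1, the change over time 7 with Sal and 5 with S + D, and the controls 1. DESeq2 gave 4 for S + D against Sal, 1 for the 24 h interaction, 1 for the change with Das and 15 for that with S + D. A fit of only the groups compared gave 3 higher with Sal at 24 h, 5 higher with Das at 72 h, 1 for S + D against Sal, 11 for S + D against Das and 15 for the change with S + D, and a fit of all 32 libraries gave 7 for the 72 h interaction.

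Leaving out 1 library at a time gave, at 24 h, 4 to 5 higher and 1 to 1 lower with Sal, 4 to 4 and 2 to 3 with Das, and 8 to 12 and 4 to 6 with S + D. At 72 h it gave 17 to 19 and 5 to 8 with Sal, 5 to 12 and 2 to 2 with Das, and 21 to 24 and 4 to 5 with S + D. S + D against Sal ranged from 1 to 2 and against Das from 13 to 21, the interaction from 0 to 1 at 24 h (1 without the unnumbered control, the unnumbered Sal library, Sal 1 or Sal 2) and from 3 to 6 at 72 h. The change over time ranged from 5 to 14 with Sal, 0 to 1 with Das (1 without Das 72 h replicate 3) and 5 to 11 with S + D, and the controls gave 1 to 1.

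Of 84 pairs of a gene with single values and a treatment against its control, none changed sign where the main fit or the other setting called it. Changes of sign among values called in neither were not counted. Under the settings that kept all replicates or left out the unnumbered set, 638 values kept their side of the threshold, 23 passed it anew and 11 lost it, and with 1 library left out 637, 3 and 32. Correlations of deviations between libraries of 1 number at 72 h ran from -0.03 to 0.25, so the number is not taken to pair them there. The unnumbered libraries had 0.52 to 0.61 at 72 h, and the block moved counts of that time too. Low counts limited ATP6V0C, and TFEB, MITF and MCOLN1 stood below 30 CPM in every library. With the block, MCOLN1 with Sal (-0.51, adjusted p = 0.0017) and MITF with Das (0.60, adjusted p = 0.00287) passed the threshold at 72 h. The causes of these changes were not tested.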
